A study of Danio rerio with 16 samples.

Results

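The genes described here are 8 growth factors and regulators of the Sertoli cell, the somatic cell that encloses and nourishes developing germ cells in the testis. They are gsdf, amh, inha, igf3, fshr, dmrt1, sox9a and wt1a. They were chosen by name, with earlier results of these data known. A row of the deposited tables was taken as a member when RefSeq gave its accession one of these symbols. All 8 were found among the 14,792 rows of each of the 2 bulk-seq tables used (CDxCI and TBxCB). Only dmrt1 was found among the 6847 rows of the pseudo bulk-seq table (TPxCP), of which 85.2% were matched to a symbol. The 3 tables together hold 17,251 accessions.

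The study asked how dissociation of zebrafish testes and the choice of sequencing method bear on the response to TCDD (2,3,7,8-tetrachlorodibenzo-p-dioxin, an agonist of the aryl hydrocarbon receptor). All fish were adult males of the AB strain. TB and TP were dissociated testes of TCDD-exposed fish measured by bulk-seq and by pseudo bulk-seq (counts of single cells summed per library), with 2 libraries each. CB and CP were the matching dissociated testes of control fish, with 3 libraries each, and these 4 groups came from fish of 1.5 years of age. CD and CI were dissociated and intact testes of control fish of 1 year of age, 3 libraries each, and each intact testis was the contralateral testis of a dissociated one. Exposure was for 1 h at 3 and again at 7 weeks post-fertilization, with TCDD at 50 pg/ml and DMSO at 0.1% as its carrier, or with the carrier alone. The study's methods name 3 independent exposure experiments run as successive blocks. No source ties these blocks to libraries, so they could not enter the comparisons. The labels write 50 pg/ml for control fish as well, and the study's methods, which give vehicle only, were followed. Dissociation consisted of mincing and collagenase digestion with shaking and pipetting, followed by removal of dead cells. Intact testes were instead kept in RNALater before freezing, so CD and CI differ in all of these steps together. No label says that the libraries of a group were separate fish, so p-values cover the spread between these libraries.

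Sertoli cells of fish form cysts around clones of germ cells. Follicle-stimulating hormone acts on them through the receptor Fshr, and in zebrafish it lowers the output of Amh, which holds spermatogonia undifferentiated, and raises that of Igf3, which promotes their differentiation. Gsdf, a TGF-beta family factor of fish, and the inhibin alpha subunit Inha are further secreted products, while Dmrt1, Sox9 and Wt1 are transcription factors of the male gonad.

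Total counts were 4,828,801 to 36,172,885 per bulk-seq library and 3,490,409 to 9,987,998 per pseudo bulk-seq library. Bulk-seq levels are given as CPM, the counts per 1,000,000 counts on TMM-scaled library sizes. The libraries were 3′ tag libraries, in which a transcript's count does not grow with its length. CI replicate 2 and TB replicate 2 stood apart, with root mean square log2 differences from the CB mean of 1.22 and 1.31 over 13,506 rows other than the members, against 0.823 to 1.01 in the remaining CD, CI and TB libraries. Columns of the CDxCI table were taken by their names, although the deposited fold changes run the other way. Leydig cell genes bear on this choice, since their summed level was 70.3 to 281 CPM in CD and 3954 to 5681 CPM in CI, and 147 to 372 CPM in the dissociated CB libraries of the other table.

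**Figure D1:**
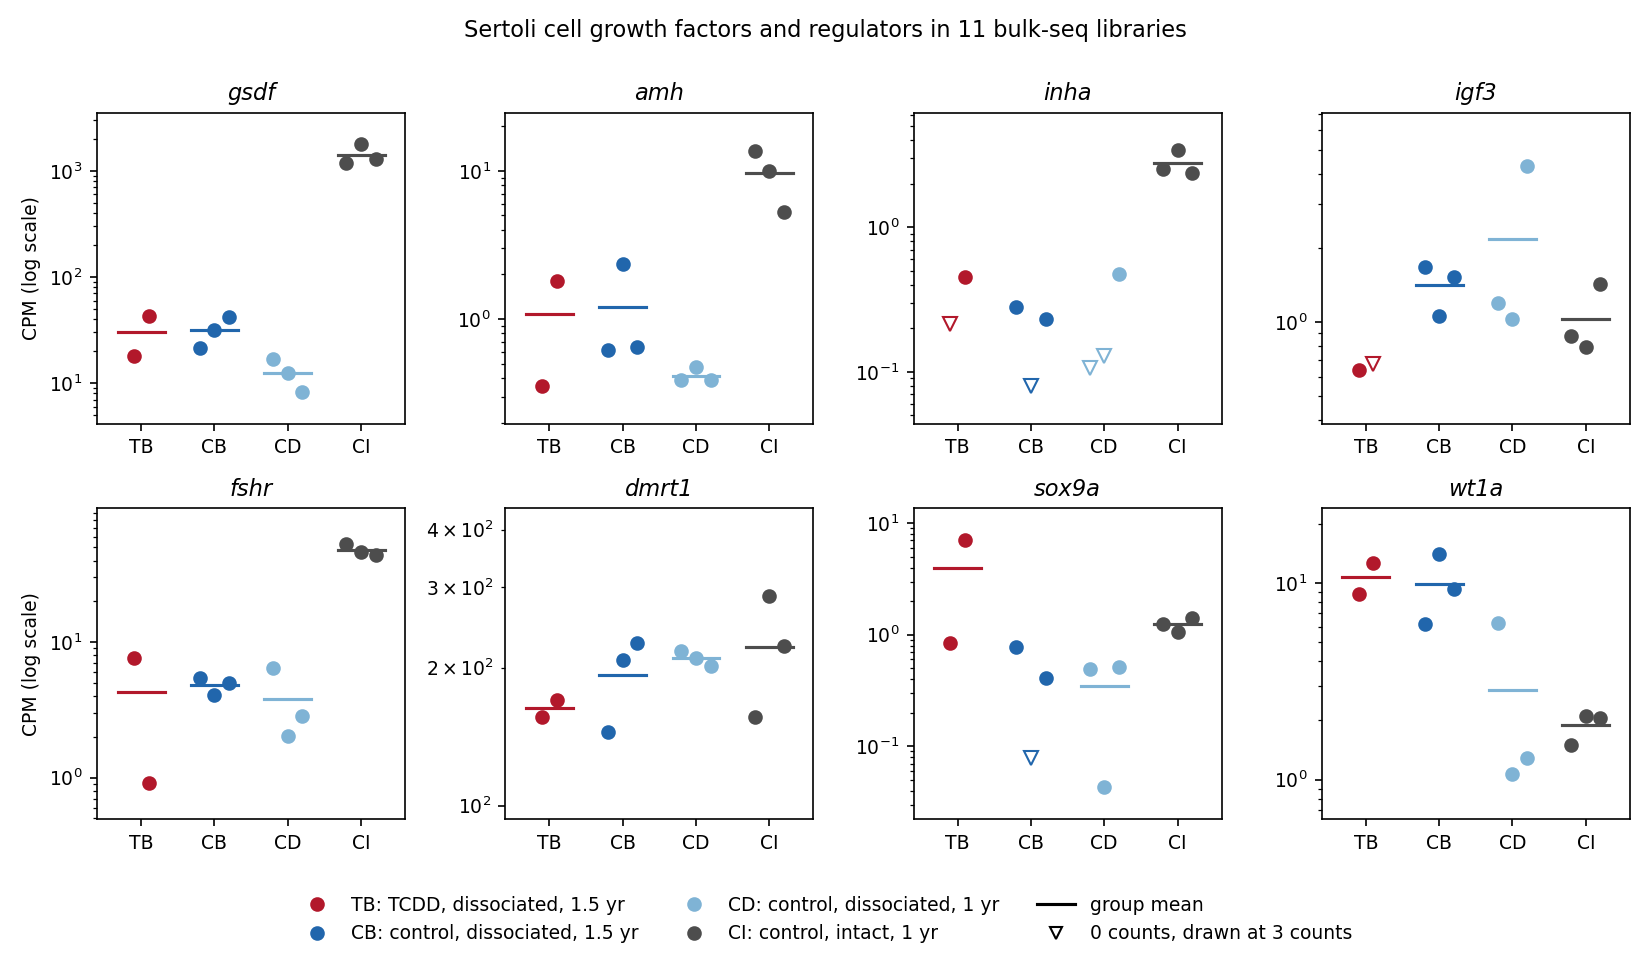
CPM on a log scale (vertical) of the 8 genes in each of the 11 bulk-seq libraries, by group. Points are libraries, bars are group means where no library was at 0, and open triangles mark 0 counts, drawn at the level of 3 counts. The 3 CI libraries lie above every dissociated library for gsdf, amh, inha and fshr, while the groups overlap for dmrt1.

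The comparison of dissociated with intact testes asked what dissociation does to the transcripts. Among secreted factors, gsdf and amh were lower in CD than in CI, and so was the receptor fshr, while dmrt1 differed by less than the spread between libraries. Of the 8 members, 3 were called lower and 0 higher by edgeR's quasi-likelihood test at an adjusted p under 0.05. Of the 12,773 rows tested, 2.22% were called, 1.96% lower and 0.258% higher. The median log2 fold change over the 8 members was -2.73, against 0.01 over all rows tested. In 5 of the 8 (gsdf, amh, inha, fshr and sox9a) every CD library lay under every CI library, which was so for 9.44% of rows with at least 10 counts in some library. Since the members were chosen with earlier results of these data known, these contrasts with all rows are descriptive and no independent support.

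The largest difference among the members was that of gsdf (NM_001114668), which in rainbow trout stimulates proliferation of early germ cells. It had 17.0, 12.3 and 8.16 CPM in CD, against 1173, 1807 and 1283 CPM in CI. The CD libraries held 485, 289 and 191 gsdf counts, far above the detection limit, so that its low level there was well measured. The lowest CI library lay far above the highest CD library. Means with SD were 12.5 ± 4.44 CPM for the 3 CD and 1421 ± 339 CPM for the 3 CI libraries, so that CD held 0.879% of the CI level. The log2 fold change was -6.83 (SE 0.34, 95% interval -7.58 to -6.07, edgeR adjusted p = 1.05e-05). In bulk samples, fewer cells of a type and less RNA per cell cannot be told apart.

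Another member of the TGF-beta family, amh (NM_001007779), had 0.386, 0.468 and 0.384 CPM in CD and 13.5, 10.1 and 5.25 CPM in CI. The CD libraries were nearly equal but rested on 11, 11 and 9 counts, and the CI libraries spread more widely without reaching them. On the log2 scale the difference was -4.51 (SE 0.50, 95% interval -5.65 to -3.42, edgeR adjusted p = 0.000998), and CD held 4.29% of the CI mean.

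The inhibin subunit inha (NM_001045204) was at 0 counts in CD replicates 1 and 2 and at 11 counts, or 0.470 CPM, in CD replicate 3. In CI it had 2.48, 3.44 and 2.38 CPM. Here the groups did not overlap either, but the CD libraries disagreed among themselves at nearly equal depth. The log2 fold change of -4.12 (SE 1.25) was not called by edgeR (adjusted p = 0.126). It was called by DESeq2 (adjusted p = 0.00484) and by edgeR without CD replicate 3 (adjusted p = 0.0319).

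The insulin-like growth factor igf3 (NM_001115050) had 1.19, 1.02 and 4.27 CPM in CD, against 0.869, 0.795 and 1.42 CPM in CI. CD replicate 3 stood above all others and the remaining libraries overlapped. Its log2 fold change of 1.02 (SE 0.73, edgeR adjusted p = 0.499) had a 95% interval of -0.59 to 2.65, and without CD replicate 3 it was 0.07.

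For the gonadotropin receptor fshr (NM_001001812), levels were 6.46, 2.00 and 2.82 CPM in CD and 52.1, 46.5 and 43.7 CPM in CI. The CI libraries were close to each other and well above all CD libraries, of which replicate 1 was the highest. Its log2 fold change was -3.65 (SE 0.41, 95% interval -4.56 to -2.74, edgeR adjusted p = 0.00112), and CD held 7.92% of the CI mean. The calls of gsdf, amh and fshr were made under every alternative run for this comparison, including each left-out library.

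Of the transcription factors, none was called. Levels of dmrt1 (NM_205628), a determinant of male gonad development that zebrafish express in germ cells as well as in Sertoli cells, were 217, 208 and 202 CPM in CD and 154, 289 and 223 CPM in CI. All CD libraries fell inside the range of the CI libraries. The 95% interval of its log2 fold change, -0.09 (SE 0.23, edgeR adjusted p = 0.878), ran from -0.59 to 0.42, and the sign turned (0.15) without CI replicate 2.

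A low level was measured for sox9a (NM_131643), a Sox family factor of Sertoli cells, with 0.492, 0.0426 and 0.512 CPM in CD and 1.24, 1.06 and 1.42 CPM in CI. The groups did not overlap, but the counts were 14, 1 and 12 in CD and 10, 8 and 40 in CI. The log2 fold change of -1.82 (SE 0.98, edgeR adjusted p = 0.364) was not called. For wt1a (NM_131046), a zinc finger factor of gonad and kidney, 6.21, 1.06 and 1.28 CPM were measured in CD and 1.49, 2.12 and 2.06 CPM in CI. CD replicate 1 was above all other libraries and the remaining CD replicates below them. Its log2 fold change of 0.59 (SE 0.71, edgeR adjusted p = 0.703) became -0.69 without CD replicate 1.

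**Figure D2:**
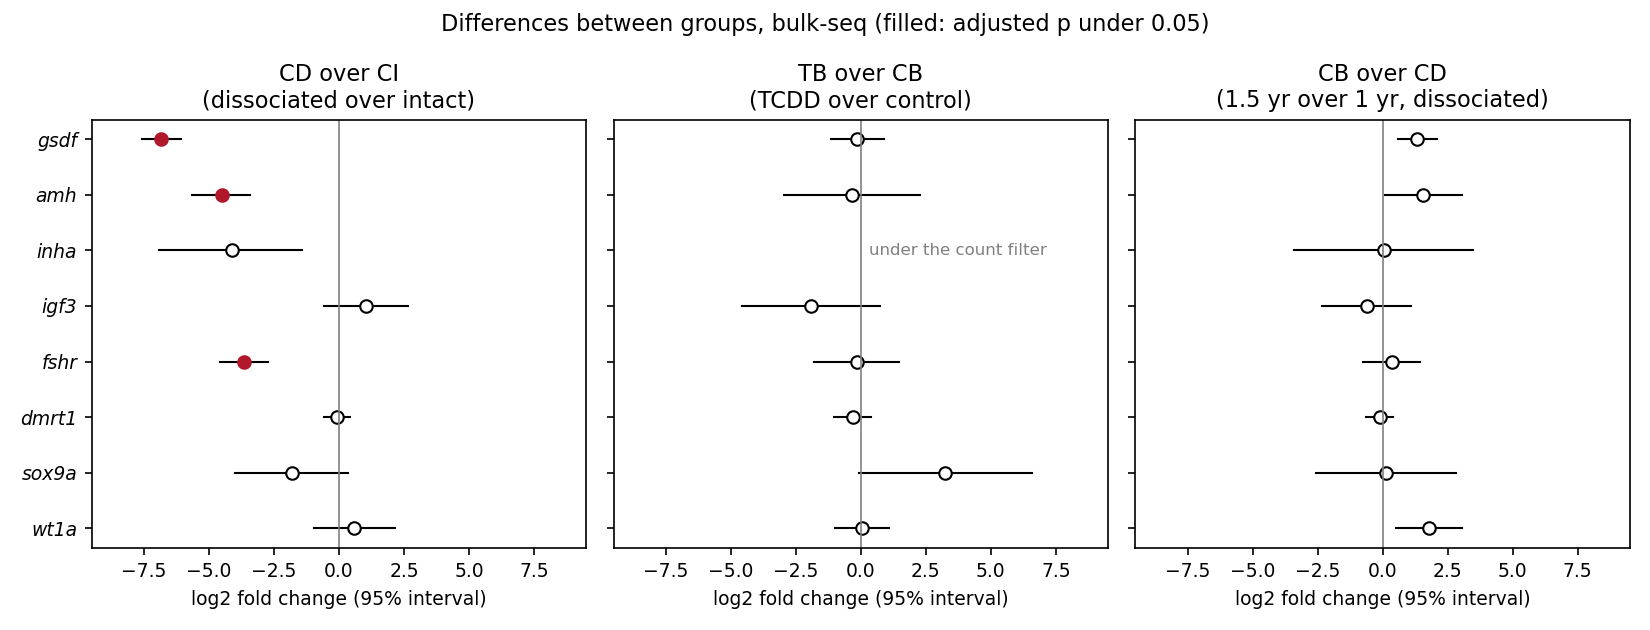
Log2 fold changes (horizontal) of the 8 genes with 95% intervals from edgeR in CD over CI, TB over CB and CB over CD. Filled points passed an adjusted p under 0.05, which only gsdf, amh and fshr in CD over CI did, and inha was under the count filter in TB over CB.

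The members called lower were compared with each other as ratios of counts within a library, which do not depend on the scaling between libraries. These genes were picked by their calls in the same CD and CI libraries. Their ratios in CD and CI therefore restate the fold changes above and are no separate support for them. The ratio of gsdf to fshr was 2.64, 6.15 and 2.89 in CD and 22.5, 38.9 and 29.4 in CI. The ratio of gsdf to amh was 44.1, 26.3 and 21.2 in CD and 86.7, 179.5 and 244 in CI. For both ratios every CD library lay below every CI library. The CD over CI fold of the geometric mean was 0.122 for gsdf to fshr and 0.186 for gsdf to amh, with a two-sided exact permutation p = 0.10 each, the smallest that 3 against 3 libraries allow (adjusted p = 0.45 over 9 ratio comparisons). The ratio of amh to fshr overlapped between the groups, at 0.0598, 0.234 and 0.136 in CD and 0.260, 0.217 and 0.120 in CI (exact permutation p = 0.60).

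**Figure D3:**
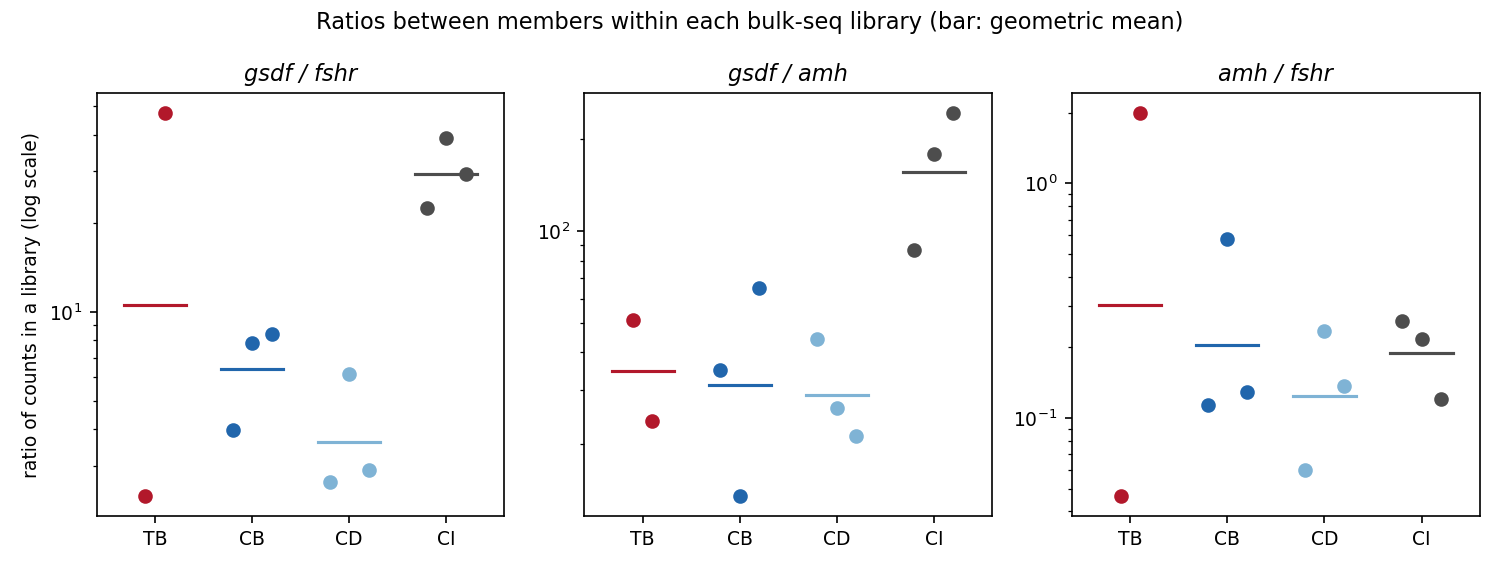
Ratios of counts (vertical, log scale) of gsdf to fshr, gsdf to amh and amh to fshr in each bulk-seq library, with group geometric means as bars. The CD libraries lie below the CI libraries in both gsdf ratios, and TB replicate 2, with 4 fshr counts, stands high in the ratios to fshr.

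Other genes of the same pathways were taken from lists of known members, likewise chosen with earlier results of these data known. Of the other Sertoli cell genes, 23 were tested in CDxCI, of which 18 had lower means in CD. Calls were made for 7, all lower, where 2.22% of all rows tested were called, and the median log2 fold change was -0.87. Their summed level was 363 to 390 CPM in CD and 1083 to 1546 CPM in CI. The largest differences were those of the microRNA gene row mir202 (-9.04), the retinoic acid degrading enzyme cyp26a1 (-7.11), the tight junction claudin cldn11a (-4.69) and the keratin krt18a.1 (-3.69). Of these, cldn11a averaged 6.16 ± 2.21 CPM over the 3 CD and 159.8 ± 49.9 CPM over the 3 CI libraries (± SD), and its edgeR adjusted p was 8.89e-05. The row mir202 averaged 0.182 ± 0.180 CPM in CD, near the level of 3 counts, so the size of its difference rests on few counts.

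Inhibins share their beta subunits with activins, and 2 of 13 genes of activin, inhibin and follistatin were called lower in CD and 0 higher. These were both activin beta A subunit genes, inhbab (log2 fold change -3.64, edgeR adjusted p = 0.000186) and inhbaa (-2.82, adjusted p = 0.000594). Of the 13 genes, 7 had lower and 6 higher means in CD. Among the higher was the beta B subunit gene inhbb (0.83, edgeR adjusted p = 0.180), which was not called. Of 23 genes of the IGF system around igf3, 2 were called lower, the IGF binding protein genes igfbp5b (-2.49) and igfbp7 (-1.34). In that list, 13 had lower and 10 higher means in CD. Among 26 receptors and Smads through which Gsdf, Amh and activins may signal, and their targets, 1 was called, the target gene id3 (-1.43). Of 34 other gonad transcription factors, 1 was called, the steroidogenic regulator nr5a1b (-2.18). No gene of the 18 tested for signalling downstream of gonadotropin receptors was called. The medians of these 5 lists were -0.42, -0.19, -0.02, -0.04 and -0.12. Of all rows tested, 2.22% were called, so the single calls of id3 and nr5a1b do not set their lists apart.

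Markers of other somatic cells moved with the Sertoli genes. Of 12 Leydig cell genes tested, 5 were called lower in CD, with a median log2 fold change of -3.52, among them hsd11b2 (-6.38), cyp11c1 (-5.20), insl3 (-4.98) and cyp17a1 (-4.60). Of 16 smooth muscle and fibroblast genes 7 were called lower and of 15 leukocyte genes 5, while none of 8 endothelial and 4 erythrocyte genes was. Over all rows tested, 1.96% were called lower. The summed smooth muscle and fibroblast level was 582 to 607 CPM in CD and 1612 to 2853 CPM in CI, and the summed leukocyte level 136 to 164 CPM in CD and 376 to 896 CPM in CI. The 15 spermatogonial and 15 spermatid and sperm genes gave 0 calls, with medians of 0.03 and 0.01. Of 9 spermatocyte genes, 8 had higher means in CD, with a median of 0.53, and 1, rec8b, was called higher (1.23). The part that a different share of somatic cells had in the levels of gsdf, amh and fshr was not tested.

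Over the 11 bulk-seq libraries, the genes whose log2 CPM followed gsdf most closely were inhbab (Pearson r = 0.987), fabp4a, a fatty acid binding protein gene (r = 0.978), and osr2, a zinc finger gene (r = 0.975). Those closest to amh were gsdf itself (r = 0.934), si:ch211-105c13.3 (r = 0.932) and fdx1b, the ferredoxin of steroid synthesis (r = 0.927). These values describe 11 libraries that fall into groups, with all dissociated libraries at 1.88 to 4.98 CPM of inhbab and the CI libraries at 23.6, 35.5 and 31.1 CPM. Between members, r with gsdf was 0.862 for inha and 0.860 for fshr, against 0.384 for sox9a, 0.303 for dmrt1, -0.132 for igf3 and -0.323 for wt1a.

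CB and CD are both dissociated control testes, which differ in the age of the fish, in the testes taken and in the table they come from, and these cannot be told apart. On the common scale of all 11 libraries, gsdf had 21.5, 31.7 and 41.7 CPM in CB and 17.0, 12.4 and 8.17 CPM in CD. Every CB library was above every CD library, as in 12.9% of rows with at least 10 counts, and far under the lowest CI library. Its log2 fold change was 1.33 (SE 0.35, 95% interval 0.58 to 2.09), which edgeR did not call (adjusted p = 0.116) and DESeq2 did (adjusted p = 0.0199). Of the 8 members, 0 were called by edgeR, against 0.207% of 13,514 rows (0.111% higher and 0.0962% lower). An unadjusted edgeR p under 0.05 was found for 3 members, gsdf, wt1a and amh, and for 1888 of the 13,514 rows.

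The levels of amh were 0.615, 2.35 and 0.644 CPM in CB and 0.387, 0.472 and 0.385 CPM in CD. CB replicate 2 was the highest, and the CB libraries again lay above the CD libraries (log2 fold change 1.56, SE 0.69, edgeR adjusted p = 0.329), a difference that was 0.60 without CB replicate 2. For wt1a, 6.21, 14.0 and 9.29 CPM were measured in CB and 6.22, 1.07 and 1.28 CPM in CD. CD replicate 1 reached the level of the lowest CB library (log2 fold change 1.78, SE 0.59, edgeR adjusted p = 0.197), and without it the difference was 3.02. The other dissociated group of 1.5 years, TB, had 8.80 and 12.7 CPM of wt1a. Differences of fshr (0.34), inha (0.05), sox9a (0.12), igf3 (-0.61) and dmrt1 (-0.12) in CB over CD were within the spread between libraries, with edgeR adjusted p of 0.798 to 0.993. Beside these values, 19 of 24 other Sertoli genes and 17 of 17 smooth muscle and fibroblast genes had higher means in CB than in CD. The same held for 19 of 23 IGF system genes and 10 of 13 Leydig cell genes, but for 1 of 4 erythrocyte genes. Of all 13,514 rows tested, 6928 were higher in CB and 28 were called in either direction. Of the genes on the lists, only mir202 was called (log2 fold change 4.46, edgeR adjusted p = 0.00206), and its CD level was near that of 3 counts.

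The comparison of TB with CB asked what TCDD does in dissociated testes by bulk-seq. None of the 7 members tested was called, and no row of the table was (0.0% of 12,939 rows by edgeR, while 1149 rows had an unadjusted p under 0.05 and DESeq2 called 8). For gsdf, 17.5 and 42.4 CPM were measured in TB and 22.0, 31.7 and 43.7 CPM in CB. TB replicate 1 lay below the CB libraries and TB replicate 2 near the highest of them, and the log2 fold change of -0.13 had a 95% interval of -1.16 to 0.90 (edgeR adjusted p = 0.935). Changes within this interval could not be told from none with these libraries.

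Levels of dmrt1 were 151 and 168 CPM in TB and 148, 208 and 237 CPM in CB. Both TB libraries lay inside the CB range, toward its lower end (log2 fold change -0.31, 95% interval -1.01 to 0.40, edgeR adjusted p = 0.737). For wt1a, TB had 8.52 and 12.5 CPM and CB 6.33, 14.0 and 9.72 CPM (0.05, 95% interval -0.99 to 1.09).

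The remaining members rested on few counts in TB replicate 2, the shallowest bulk-seq library. For fshr, 7.42 and 0.892 CPM were measured in TB and 5.54, 4.05 and 5.20 CPM in CB. TB replicate 1 was above the CB libraries and TB replicate 2, with 4 counts, below them, and the log2 fold change of -0.16 became 0.65 without TB replicate 2. For amh, TB had 0.344 and 1.79 CPM and CB 0.628, 2.36 and 0.674 CPM (-0.35, edgeR adjusted p = 0.933). For igf3, TB had 9 counts and 0 counts, or 0.619 and 0 CPM, and CB had 1.71, 1.06 and 1.59 CPM (edgeR adjusted p = 0.593). The 0 in TB replicate 2 allows a level of up to 0.669 CPM at 3 counts.

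The level of sox9a in TB was 0.825 CPM in replicate 1 and 6.92 CPM, or 31 counts, in replicate 2, against 0.799, 0 and 0.433 CPM in CB. TB replicate 2 held a higher level of sox9a than any other bulk-seq library, and TB replicate 1 lay just above the CB libraries. Its log2 fold change of 3.23 (SE 1.46) was not called (edgeR adjusted p = 0.553) and was 1.095 without TB replicate 2. For inha, the counts were 0 and 2 in TB and 5, 0 and 5 in CB, and the row was under the count filter. With igf3 lower and sox9a higher in both TB libraries than in all CB libraries, 1 of 8 members was apart in each direction. Of rows with at least 10 counts in some library, 13.2% were apart lower and 14.0% higher. With 5 counts or fewer, inha is not among these rows.

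Of the other Sertoli genes, 10 had lower and 12 higher means in TB, with a median log2 fold change of 0.15, against -0.05 over all rows. Their summed level was 611 to 736 CPM in TB and 481 to 577 CPM in CB. The summed levels of smooth muscle and fibroblast genes were 1389 to 1510 CPM in TB and 945 to 1161 CPM in CB. IGF system genes summed to 506 to 588 CPM in TB and 355 to 443 CPM in CB, with 17 of 23 higher in TB. Erythrocyte genes summed to 54.7 to 75.1 CPM in TB and 34.0 to 49.8 CPM in CB. The summed levels of spermatogonial genes were 3132 to 3728 CPM in TB and 4115 to 4693 CPM in CB. Gene by gene, 7 of the 15 spermatogonial genes tested were lower and 8 higher in TB. Their median log2 fold change was 0.004, so the lower sum was not shared across the list. The sums of all other lists overlapped between TB and CB. Examples are Leydig cell genes, at 194 to 229 CPM in TB and 147 to 372 CPM in CB, and leukocyte genes, at 145 to 180 and 138 to 158 CPM. Among single rows with at least 10 counts in some library, 13.2% were apart lower and 14.0% higher, and no listed gene was called. The part of these sums in the members' levels was not tested.

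In pseudo bulk-seq, only dmrt1 of the 8 members was found in the TPxCP table. Of its rows, 85.2% were matched to a symbol, so a member under an unmatched accession would not have been found. No value in this table was under 30 counts, so that genes of low level are not in it. At the CB bulk-seq level, gsdf would have had 112 to 320 counts in the 3 CP libraries and wt1a 35.0 to 100.3. Of the 955 other genes within 1.2-fold of the CB level of gsdf, 51.2% were in the table. The share was 24.8% at the level of wt1a, 15.6% at that of fshr and 0.581% at that of inha. The cell clusters that the paper names are all germ cell stages, with no Sertoli cell cluster among them. How far this bears on the members that are absent was not tested. The pseudo bulk-seq levels of the 7 other members were not analysed here.

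Levels of dmrt1 were 406 and 468 CPM in TP and 308, 314 and 351 CPM in CP. Both TP libraries were above all CP libraries, as in 34.4% of all rows. The log2 fold change was 0.43 (SE 0.16, 95% interval 0.07 to 0.79) and was not called by edgeR (unadjusted p = 0.0264, adjusted p = 0.0739), in a comparison in which 28.1% of 6847 rows were called, 8.69% higher and 19.4% lower. The adjusted p stayed above the threshold under each alternative run. With the TCDD effect in bulk-seq at -0.31, the difference between methods was tested as an interaction over the 4388 shared rows. It was 0.64 (SE 0.34, 95% interval -0.11 to 1.40, edgeR adjusted p = 0.246), against a median of 0.16 over all shared rows, of which 7.0% were called (0.843% higher and 6.15% lower). Bulk-seq and pseudo bulk-seq libraries of a group came from the same suspensions, which this fit takes as independent.

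Genes of later germ cell stages moved in the same libraries. In TPxCP, 7 of 12 spermatocyte genes and 9 of 10 spermatid and sperm genes were called lower in TP and 0 higher, with medians of -0.90 and -3.20. Over all rows of this comparison, 19.4% were called lower. The spermatocyte and sperm genes called lower included sycp1, a synaptonemal complex gene (-3.33), and izumo1, a sperm fusion protein gene (-4.21). The summed spermatid and sperm level was 772 to 803 CPM in TP and 2513 to 4347 CPM in CP. Of 5 other Sertoli genes in this table, gdnfb, a growth factor for spermatogonia (-1.48, edgeR adjusted p = 0.00761), and the Sox factor gene sox8b (-1.43, adjusted p = 0.00849) were called lower. The other 3 had higher means in TP without a call, and the median log2 fold change of the 5 was 0.32. In the cluster sheets, gdnfb and sox8b also had larger shares in some clusters rich in meiotic or spermatid genes. Examples are gdnfb with 29.7% of cells in cluster 5 against 9.1% of other cells and sox8b with 58.6% in cluster 7 against 20.6%. In cluster 10, also rich in spermatid genes, the share of sox8b was smaller, at 3% against 24%. How far the mixture of germ cell stages bears on the level of dmrt1 was not tested.

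The deposited sheets of 10 cell clusters list genes with the share of cells in which each was detected, pooled by the authors over libraries. The paper describes its cluster comparison as one between conditions within a cluster. The shares were instead read here as a cluster against all other cells, since the second share of a gene varied little between sheets. How doublets were treated is not given in the sources used here, and none could be removed from pooled values. The share for dmrt1 was listed for 7 clusters, and none of the other members was found in any among rows matched to a symbol. It was 75% of cells in cluster 2 against 48.9% of all other cells, 84.3% in cluster 3 against 50%, and 69.9% in cluster 5 against 52.7%. It was 20.7% in cluster 7 against 56.6%, 11.9% in cluster 8 against 56.5%, 5.5% in cluster 9 against 60.4% and 3% in cluster 10 against 57.1%. The share of dmrt1 was thus larger in 3 of the listed clusters and smaller in 4.

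The clusters differed in germ cell genes. In clusters 7, 8, 9 and 10, 10 of 11, 10 of 11, 11 of 12 and 9 of 10 listed spermatid and sperm genes had a larger share than in other cells, where 60.6%, 49.6%, 30.2% and 24.2% of all genes listed in these clusters did. In cluster 5, 9 of 10 spermatocyte genes did, against 38.2% of all genes listed, among them dmc1, a recombinase of meiosis, at 93.1% against 43.6%. In cluster 6, which does not list dmrt1, 9 of 9 spermatocyte genes did, against 56.1% of all genes listed, with dmc1 at 89.2% against 43.6%. Of the spermatogonial genes listed, 5 of 5 had a larger share in cluster 1, which does not list dmrt1, against 84.2% of all genes listed there. The counts were 2 of 3 in cluster 2, against 44.3%, and 2 of 2 in cluster 3, against 48.5%, too few to set either apart from its background. In cluster 2, the piRNA pathway gene piwil1 of this list was at 95.8% against 67.2%, while tdrd7a of the list was at 27.3% against 32.8%. In cluster 3, piwil1 was at 95.6% against 69.8%. Cluster 1 had piwil1 at 98.8% against 72%. Its dmrt1 share is not listed, so whether piwil1 marks the clusters with larger dmrt1 shares cannot be read from these values. The depth per cell of the clusters was not analysed here, and a share of 3% in cluster 10 may include free RNA of droplets, so the clusters with low shares were not read as expressing dmrt1. These are pooled values without replicates, and no test was made.

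**Figure D4:**
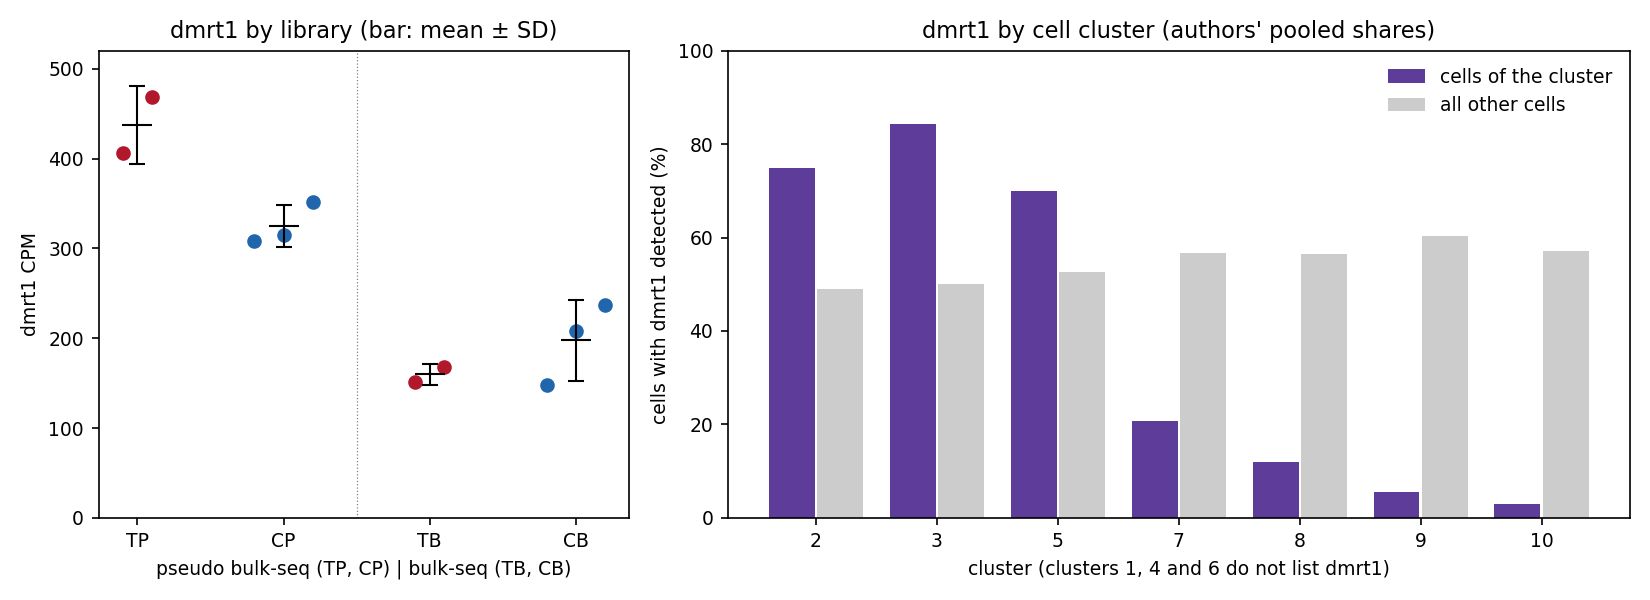
Left, dmrt1 CPM (vertical) per library in pseudo bulk-seq (TP, CP) and bulk-seq (TB, CB), with mean and SD as bars; the TP libraries lie above the CP libraries, while TB and CB overlap. Right, percent of cells with dmrt1 detected in each listed cluster and in all other cells, larger in clusters 2, 3 and 5 and smaller in clusters 7 to 10.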

How the data were processed

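The authors deposited raw counts per RefSeq transcript in 1 table per comparison. Reads of the 3′ bulk-seq libraries were aligned by the authors to GRCz11, and Cell Ranger output was summed over cells for pseudo bulk-seq. For Cell Ranger the paper names another reference, dR10. How far this bears on comparisons between the methods was not tested. Per the submitters' processing notes, Cell Ranger 6.01 and Seurat 4.0.4 were used. The deposited cluster sheets give shares of cells as a fraction, printed here as a percent. The tables also hold the authors' fold changes and p-values, which were not used. In TBxCB, count rows run opposite to the accessions and were reversed. Its mean log2 levels then correlated with those of CDxCI at r = 0.974 over 12,328 rows, against -0.944 as deposited, and log2 ratios of TB replicate 2 to CB replicate 1 with those of CI replicate 2 to CI replicate 1 at 0.352, against 0.0438 or less when shifted by 1 row. Columns of TBxCB named scC and scT were taken as CB and TB by the comparison the table holds, and their replicate numbers are those of the columns. Of the other tables, 10 count columns per sample were not used. Symbols came from RefSeq annotation of GRCz12tu for 97.6% of bulk-seq and 85.2% of TPxCP rows, from which no coordinates were taken. Sequences of the members were not analysed here.

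Groups were compared in R 4.3.3 with edgeR 4.0.16 (filterByExpr, TMM, robust quasi-likelihood test, Benjamini-Hochberg adjustment over all rows tested), tested on simulated counts. A call is an adjusted p under 0.05. Shares of all rows whose groups did not overlap were taken on CPM without TMM scaling, while the members were judged on TMM-scaled CPM. CBxCD was fitted on all 11 bulk-seq libraries joined by accession. Correlations used log2 CPM with a prior count of 2. Alternatives were relative log expression scaling, no filter, DESeq2 1.42.0, a replicate block, leaving out each library and, for CBxCD, only CB and CD in the fit. Floors are 3 counts and cover counting error only. Named genes are the 8 members, up to 4 called genes of each list with the largest fold changes, and the 3 genes most like gsdf and amh. As examples, rec8b, piwil1, tdrd7a and dmc1 were added after their values were seen. The members and the 14 gene lists were chosen with earlier results of these data known. The deposited share of cells outside a cluster was read so because it varied little between sheets. CD and CI are contralateral testes, but no source ties the replicate numbers to fish, and deviations of same-numbered libraries correlated at 0.261, 0.0408 and -0.0593, so the main fit has no block.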

Additional observations from a re-analysis of the deposited data

How the results depend on the processing

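The counts of calls moved with the processing more than the members did. In CDxCI, 283 rows were called by edgeR and 781 by DESeq2, and leaving out 1 library gave 105 to 333 (105, 111 and 138 when CD replicate 3, 1 or 2 was left out, and 178 when CI replicate 3 was). In TBxCB, 0 rows were called by edgeR, 8 by DESeq2 and 0 to 698 with 1 library left out, where the 698 came without TB replicate 1, when TB replicate 2 alone stood for TB and was assumed to vary like CB. In TPxCP, 1926 calls became 397 to 2853 (1072 without CP replicate 3, 618 without TP replicate 1 and 397 without TP replicate 2). In CBxCD, 28 calls became 439 by DESeq2, 65 with only CB and CD in the fit and 11 to 27 with 1 library left out, being 11, 13 and 17 without CD replicates 1, 2 and 3 and 18 and 13 without CB replicates 2 and 3. The interaction gave 307 calls by edgeR and 633 by DESeq2.

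The replicate block gave 367 calls in CDxCI and 2535 in TPxCP and changed no call of a member. The CDxCI libraries did not all correlate best with their own number. No block was fitted for TBxCB, CBxCD and the interaction, since the columns of TBxCB match a group but no sample label, so that their numbers were not used to pair libraries. Of 224 values of members under alternatives, 205 kept their direction and their side of the threshold, 3 passed the threshold only under the alternative and 16 reversed, all of results not called. With 1 library left out, the range in CDxCI was -0.69 to 0.98 for wt1a (-0.69 without CD replicate 1) and -0.29 to 0.15 for dmrt1 (0.15 without CI replicate 2). In TBxCB it was -0.19 to 0.42 for wt1a (-0.19 without CB replicate 1, -0.18 without TB replicate 2), -0.83 to 0.38 for gsdf (0.15 without CB replicate 3, 0.38 without TB replicate 1), -1.77 to 0.52 for amh (0.52 without TB replicate 1) and -2.46 to 0.65 for fshr (0.65 without TB replicate 2). In CBxCD it was -0.58 to 4.67 for inha (-0.58 and -0.54 without CD replicates 1 and 2, -0.57 and -0.32 without CB replicates 1 and 3, and 4.67 without CD replicate 3, when CD is at 0 and the value is no bound). It was -0.86 to 0.75 for sox9a (-0.41 without CD replicate 2, -0.86 without CB replicate 1), -0.98 to 0.32 for igf3 (0.32 without CD replicate 3) and -0.25 to 0.012 for dmrt1 (0.012 without CB replicate 1). The cause was not tested. Depth limits inha, sox9a, igf3 and amh most, which had 40 counts or fewer in at least 7 of the 8 dissociated bulk-seq libraries.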
